A study of Homo sapiens with 50 samples.

Results

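The comparison described here sets H1 cultures given IWP2 together with NaHCO3 against differentiation control cultures, both sampled on day 5 of cardiac differentiation. H1 is an established human embryonic stem cell line, of wild-type genotype in every group. The series holds 50 RNA-seq libraries in 25 groups of treatment and day, with 2 libraries a group. Genes were taken where at least 2 of these 4 libraries reached 1 FPKM (fragments per kilobase of exon, scaled to the counted reads of the library), which kept 14360 of the 57905 genes in the table; 681 of them passed through 1 of the 2 groups alone and so had to differ. A tested gene below 1 FPKM in both libraries of the joint or of the control group on day 5 is among these 681. The day 5 groups used here share the cardiac differentiation and differ in what was added: IWP2 with NaHCO3, IWP2 alone, NaHCO3 alone, or neither in the control. The labels used here give no dose, no time of addition and no measured pH, and they do not say whether the 2 libraries of a group came from separate cultures, so p-values measure only the spread between these libraries. All cultures come from 1 cell line, so nothing here speaks for other lines.

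IWP2 is a small molecule that inhibits PORCN, the enzyme that attaches a lipid to WNT proteins so that the cell can secrete them. Secreted WNT proteins bind Frizzled and LRP receptors, beta-catenin then accumulates and, with TCF/LEF factors, switches on target genes, many of which dampen the pathway in turn. In differentiating pluripotent cells WNT activity first favours primitive streak and mesendoderm, from which heart mesoderm and endoderm arise, and inhibiting WNT after that stage is a standard way to direct cells towards heart muscle. NaHCO3, sodium bicarbonate, is the buffer that sets the pH of culture medium together with carbon dioxide, and the series was designed around pH modulation.

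Library depth was 21686555 and 19521886 counts with IWP2 and NaHCO3, against 19892430 and 17475550 counts in control, and the genes kept held 99.14% to 99.23% of them. No library was left out; the 2 IWP2 libraries differed more from each other (chi-square of 10.4 per degree of freedom over genes) than the 2 libraries of the other day 5 groups did (3.16 to 5.02). The labels call the cells ESC, but on day 5 POU5F1, the core pluripotency factor, was at 4.09 and 2.8 FPKM with IWP2 and NaHCO3 and 9.09 and 9.31 FPKM in control, against 738 and 769.7 FPKM in undifferentiated H1 cells on day 0 (from the separate table of later days), and NANOG and SOX2 did not pass the expression filter. These cells are therefore described as day 5 differentiating cultures. Genes were tested with edgeR's quasi-likelihood test, which fits counts across all genes and over the 12 libraries of day 5, and a call required both a Benjamini-Hochberg adjusted p under 0.05 and a log2 fold change of 1 or more in either direction, referred to here as the limit on size. Of the 14360 genes, 770 (5.36%) were called, 317 (2.21%) higher and 453 (3.15%) lower with IWP2 and NaHCO3. With no limit on size, 2452 genes (17.1%) were higher and 2738 (19.1%) lower at an adjusted p under 0.05. Counts of list members against control given below are to be read beside these shares. The median log2 fold change of all tested genes was -0.01. In 69.1% of tested genes the FPKM of the groups did not overlap (both treated libraries lay above both control libraries in 36.6% and below them in 32.4%), so separation of 2 libraries from 2 is in itself common here. These are bulk samples, so fewer cells of a type and less RNA per cell cannot be told apart.

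**Figure D1:**
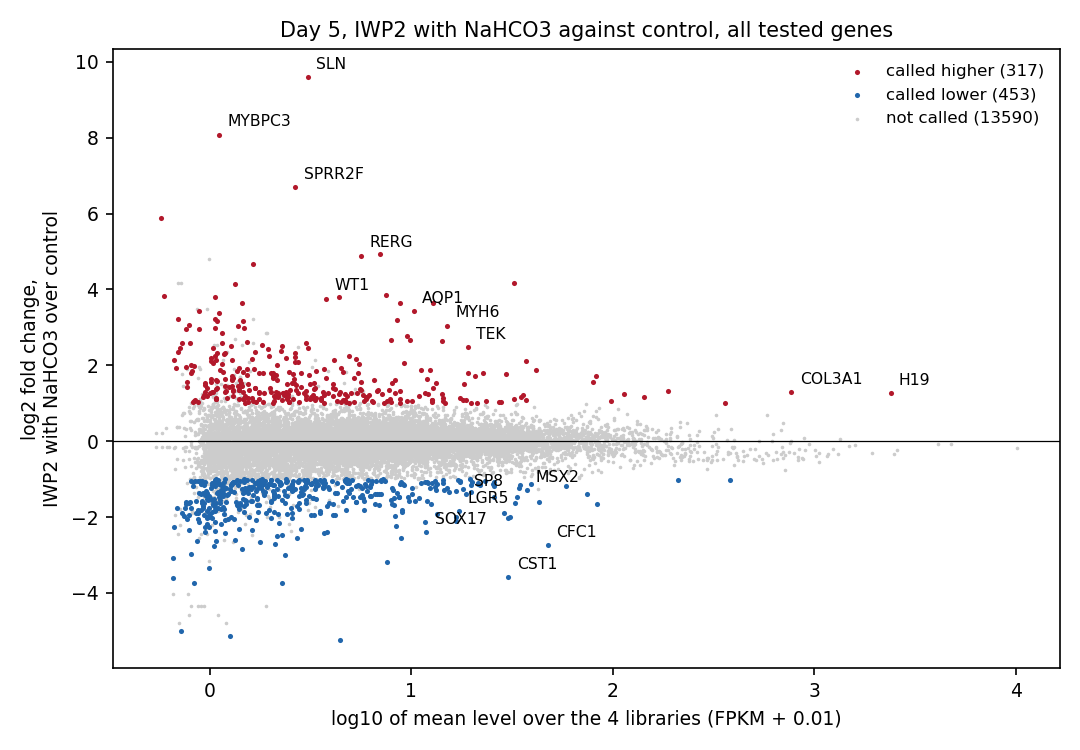
Log2 fold change of IWP2 with NaHCO3 over control on day 5 (vertical axis) against the log10 of the mean level over the 4 libraries (horizontal axis, FPKM + 0.01), 1 point for each of the 14360 tested genes, with called genes in colour and some genes of the text named. Called genes are found at most levels: H19, COL3A1 and IGF2 are the most abundant genes called higher, GJA1 and SLC2A3 the most abundant called lower.

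WNT target genes were lower with IWP2 and NaHCO3. The WNT/beta-catenin feedback list names genes that beta-catenin and TCF/LEF switch on, most of them parts or brakes of the pathway itself. Of its 14 tested members (18 listed), 8 were called lower and none higher, where 3.15% of all tested genes were called lower, and 13 of 14 were lower at an adjusted p under 0.05 of any size, where the share of all genes was 19.1%. The median log2 fold change over the 14 was -1.04. LGR5, a receptor for R-spondins, was at 7.79 and 7.44 FPKM with IWP2 and NaHCO3, against 25.3 and 28.3 FPKM in control (log2 fold change -1.85, SE 0.11, adjusted p = 5.63e-11). SP8, a zinc finger factor, was at 10.4 and 10.5 FPKM, against 26.9 and 27 FPKM in control (log2 fold change -1.41, SE 0.10, adjusted p = 1.22e-11). The related factor SP5 was at 8.37 and 7.21 FPKM, against 17.1 and 14.9 FPKM in control (log2 fold change -1.07, SE 0.12, adjusted p = 7.73e-08). In all 3 genes both treated libraries lay below both control libraries, as in 32.4% of all tested genes. DKK1, a secreted WNT antagonist that is itself a target, was at 2.8 and 2.79 FPKM, against 7.95 and 7.08 FPKM in control (log2 fold change -1.46). APCDD1, another secreted inhibitor of the pathway, had a log2 fold change of -1.35. NKD1, RNF43 and TNFRSF19 were the other members called lower. AXIN2, the scaffold most used as a readout of the pathway, was at 4.46 and 4.47 FPKM with IWP2 and NaHCO3 and 6.21 and 6.48 FPKM in control, a log2 fold change of -0.54 that passed the p threshold (adjusted p = 0.000133) and not the limit on size. LEF1, a TCF/LEF factor, was likewise below the limit at -0.56. SP5 fell just short of that limit without IWP2 with NaHCO3 replicate 2 (-0.95) and without control replicate 1 (-0.96), and RNF43 without IWP2 with NaHCO3 replicate 2 (-0.96) and without control replicate 2 (-0.97). With limma on log2(FPKM + 1), which draws low genes towards 0, 4 of the 14 were called lower.

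The upstream sequences of 3 of these genes show where the core TCF/LEF motif CTTTGA stands. RefSeq promoter windows, on GRCh38.p14 and not on the GRCh37 build of the deposited tables, were matched by symbol to 9 of the 14 tested members, and 3 of the 9 (33.3%) held CTTTGA or its reverse complement TCAAAG in the 250 bases before the start. Among all tested genes with an entry, 967 of 9284 (10.42%) did. A match describes these letters and no binding was measured here. Below, the 250 bases before the start are printed on the gene's own strand, 5′ to 3′, with the motif in capitals: SP5 (chr2:170715087-170715336, plus strand) has 3 matches, DKK1 (chr10:52314031-52314280, plus strand) 2 and SP8 (chr7:20786887-20787136, minus strand) 1.
SP5: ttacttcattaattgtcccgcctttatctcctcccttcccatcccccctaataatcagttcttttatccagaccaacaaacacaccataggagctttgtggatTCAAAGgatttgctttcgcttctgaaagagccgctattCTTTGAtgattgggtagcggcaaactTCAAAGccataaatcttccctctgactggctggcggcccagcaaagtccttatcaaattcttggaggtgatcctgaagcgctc
DKK1: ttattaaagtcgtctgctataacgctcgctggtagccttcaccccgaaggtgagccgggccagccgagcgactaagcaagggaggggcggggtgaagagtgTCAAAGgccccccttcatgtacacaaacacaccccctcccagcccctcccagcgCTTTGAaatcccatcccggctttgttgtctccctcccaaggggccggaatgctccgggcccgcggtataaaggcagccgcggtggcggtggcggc
SP8: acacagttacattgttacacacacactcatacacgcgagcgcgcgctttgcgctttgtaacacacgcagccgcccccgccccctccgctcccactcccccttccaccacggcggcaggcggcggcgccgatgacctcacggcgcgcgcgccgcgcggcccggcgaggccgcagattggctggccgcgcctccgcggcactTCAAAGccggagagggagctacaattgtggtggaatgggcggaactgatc

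The genes that make, secrete and receive WNT moved in both directions. PORCN, which IWP2 inhibits as a protein, was at 5.19 and 4.56 FPKM with IWP2 and NaHCO3, against 7.01 and 6.31 FPKM in control. WLS, the carrier that takes lipid-bearing WNT to the cell surface, was at 122 and 126 FPKM, against 149.9 and 151 FPKM in control. Neither was called. Of 22 tested members of the secretion and receptor list, 3 were called higher and 2 lower, with a median log2 fold change of 0.11. FRZB, a secreted WNT antagonist, was at 65.1 and 66 FPKM, against 15.4 and 19.3 FPKM in control (log2 fold change 1.89, SE 0.10, adjusted p = 8.6e-13). RSPO2, an R-spondin that strengthens WNT signalling, was at 17.6 and 21.6 FPKM, against 5.17 and 5.2 FPKM in control (log2 fold change 1.88, SE 0.10, adjusted p = 5.96e-15). Thus an antagonist and an agonist of the pathway were both higher. RSPO1, another R-spondin, was the third call (1.6), and it was lost without IWP2 with NaHCO3 replicate 2 (adjusted p = 0.0591). The secreted antagonists SFRP2 and SFRP5 were lower, each with a log2 fold change of -1.16, and SFRP2 fell under the limit on size without control replicate 2 (-0.96). Of the 5 tested WNT ligands of 19 listed, WNT11, which acts mostly outside beta-catenin, was called higher at 15.5 and 19.1 FPKM, against 8.33 and 7.48 FPKM in control; its log2 fold change was 1.09, and 0.95 without IWP2 with NaHCO3 replicate 2.

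Genes of the primitive streak, through which mesoderm and endoderm form, were lower or not called. Of 9 tested members of 13 listed, 3 were called lower and none higher, with a median log2 fold change of -0.90. Among all tested genes 3.15% were called lower and 2.21% higher. GSC, an organizer homeobox factor, was at 0.18 and 0.16 FPKM with IWP2 and NaHCO3, against 1.92 and 1.64 FPKM in control. LHX1, another homeobox factor of that stage, was at 1.02 and 0.83 FPKM, against 3.71 and 3.1 FPKM in control. FGF8, a growth factor of the streak, was at 3.33 and 2.64 FPKM, against 8.93 and 7.26 FPKM in control (log2 fold change -1.47). All 3 were at or below 3.33 FPKM in the treated libraries, and GSC passed the filter through the control libraries alone. T, the defining streak factor, did not pass the filter, and EOMES, which opens the mesendoderm programme, was not called (2.66 and 2.31 FPKM, against 2.51 and 2.42 FPKM in control). Without IWP2 with NaHCO3 replicate 1, 5 of the 9 were called lower. The lists of FGF and BMP signalling, both active in the streak, held more lower than higher calls. Among 13 tested FGF ligands and feedback genes 3 were called lower and none higher (median -0.68), among them SPRY1, an inhibitor of receptor tyrosine kinase signalling, with a log2 fold change of -1.33, and ETV4, a factor that FGF induces (-1.08, and -0.92 without IWP2 with NaHCO3 replicate 2). Among 17 tested BMP genes 4 were called lower and 1 higher (median -0.35). BMP6, a ligand, was at 3.3 and 3.54 FPKM, against 12 and 14.2 FPKM in control. MSX2, a homeobox factor that BMP induces, was at 22.7 and 21.7 FPKM, against 54.5 and 51.3 FPKM in control (log2 fold change -1.29, SE 0.08, adjusted p = 2.79e-13). NOG, a BMP antagonist, was also lower (-1.37). Without control replicate 2 no BMP gene was called higher. Of 9 tested pluripotency factors 1 was called higher and 2 lower: POU5F1, given above, had a log2 fold change of -1.44, TDGF1, a NODAL coreceptor, one of 1.07 (0.96 without control replicate 1), and L1TD1, an RNA-binding protein, one of -1.06 (-0.997 without IWP2 with NaHCO3 replicate 2).

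Among heart muscle genes a few rose and most stayed within the limit on size. The sarcomere is the contractile unit of muscle. Of 16 tested members of 26 listed, 3 were called higher, none lower and 13 not called (median log2 fold change 0.31). Among all tested genes 2.21% were called higher and 3.15% lower. MYH6, the alpha myosin heavy chain of atrial and early heart muscle, was at 26.5 and 27.1 FPKM with IWP2 and NaHCO3, against 3.52 and 2.8 FPKM in control (log2 fold change 3.04, SE 0.13, adjusted p = 5.79e-11). Both treated libraries lay well above both control libraries; MYH6 is nearly identical in sequence to MYH7, which did not pass the filter, so its level carries that uncertainty. MYBPC3, cardiac myosin-binding protein C, had 383 counts over both treated libraries (1.84 and 2.56 FPKM), against 1 count over both control libraries, a ratio of 347 with a 95% exact interval from counting error of 62 to 13800; its call passed the same test. MYBPC3 passed the filter through the treated libraries alone. SMPX, a small muscle protein, was the third (3.72 and 4.53 FPKM, against 1.45 and 1.54 FPKM in control). The more abundant contractile genes did not pass both limits. MYL7, the atrial myosin light chain, was at 365 and 388 FPKM with IWP2 and NaHCO3 and 411 and 421 FPKM in control. TNNT2, cardiac troponin T, was at 32.4 and 32.3 FPKM with both agents and 25.9 and 25.6 FPKM in control (log2 fold change 0.30). ACTC1, cardiac alpha actin, had a log2 fold change of 0.73. The summed level of the sarcomere list was 1184 and 1217 FPKM in the treated libraries, against 1027 and 1004 FPKM in control.

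Among 18 tested cardiac transcription factors 3 were called higher and 2 lower, where 2.21% and 3.15% of all tested genes were. Their median log2 fold change was 0.14. TBX5, a T-box factor of the first heart field, was at 3.61 and 4.36 FPKM with IWP2 and NaHCO3, against 1.45 and 1.04 FPKM in control (log2 fold change 1.63, SE 0.20, adjusted p = 1.64e-07). TBX20, which works with it in the early heart, was at 45.7 and 52 FPKM, against 23.1 and 19.5 FPKM in control (log2 fold change 1.16, SE 0.11, adjusted p = 1.28e-08). NKX2-5, a homeobox factor of heart progenitors, was at 2.91 and 1.66 FPKM, against 0.55 and 1.04 FPKM in control; this low gene was called (log2 fold change 1.52), but not without IWP2 with NaHCO3 replicate 1 (adjusted p = 0.0505) or control replicate 1 (adjusted p = 0.0531). MYOCD, the coactivator of smooth and heart muscle genes, was lower at 3.25 and 2.91 FPKM, against 6.68 and 6.35 FPKM in control (log2 fold change -1.11, SE 0.12, adjusted p = 2.73e-07), and IRX3 was the other member called lower (-1.05, with -0.985 without IWP2 with NaHCO3 replicate 2 and -0.84 without control replicate 1). The factors with the highest levels were not called. HAND1, a factor of the left ventricle and of extraembryonic mesoderm, was at 712 and 741 FPKM, against 435 and 438 FPKM in control. GATA4, a zinc finger factor of heart and endoderm, was at 78.3 and 87 FPKM, against 71.2 and 64 FPKM in control. HAND2 was at 70.0 and 73.5 FPKM, against 64.1 and 53.3 FPKM in control. ISL1, of second heart field progenitors, had a log2 fold change of -0.46 and MEF2C one of 0.73, both within the limit on size. Among 8 tested genes of calcium handling, channels and natriuretic peptides, none was called higher and 2 were lower. NPPB, a natriuretic peptide hormone, was at 1.99 and 3.17 FPKM, against 7.75 and 6.1 FPKM in control. GJA1, the gap junction protein connexin 43, was at 269 and 244 FPKM, against 476 and 546 FPKM in control; it fell under the limit on size without IWP2 with NaHCO3 replicate 2 (-0.94) and without control replicate 2 (-0.93).

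One sarcomere promoter is shown because MYBPC3 had the largest fold in that list. MEF2 factors bind A/T-rich sites that begin with CTA and end with TAG, with 4 bases between. The form is the same on both strands, and any 4 bases were allowed between, A/T-rich or not. So counted, 3 of the 12 matched sarcomere promoters (25%) and 228 of 9284 matched promoters of all tested genes (2.46%) held it. MYBPC3 (chr11:47352703-47352952, minus strand) has 1 match, in capitals in the 250 bases before its start.
MYBPC3: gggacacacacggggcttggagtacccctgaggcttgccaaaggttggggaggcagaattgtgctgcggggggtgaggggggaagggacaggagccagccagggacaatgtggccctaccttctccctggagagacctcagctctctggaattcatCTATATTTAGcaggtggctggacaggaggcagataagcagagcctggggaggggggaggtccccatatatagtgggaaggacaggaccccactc

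Among liver and yolk sac genes the abundant members were not called and 2 low ones rose. Plasma proteins such as the apolipoproteins are made by liver and yolk sac endoderm. Of 13 tested members of 20 listed, 2 were called higher, 1 lower and 10 not called (median log2 fold change 0.09). Among all tested genes 2.21% were called higher and 3.15% lower. AFP, the fetal plasma protein, was at 2.49 and 3.66 FPKM with IWP2 and NaHCO3, against 0.20 and 0.86 FPKM in control (log2 fold change 2.53, SE 0.40, adjusted p = 8.6e-05). SERPINA1, which encodes alpha-1 antitrypsin, was at 1.79 and 1.48 FPKM, against 0.39 and 0.35 FPKM in control (log2 fold change 2.10, SE 0.30, adjusted p = 3.44e-06). Both were below 1 FPKM in both control libraries and passed the filter through the treated ones. They were low next to the abundant members. The call of SERPINA1 was lost with limma on log2(FPKM + 1) (0.94) and on log2(FPKM + 0.1) (adjusted p = 0.0628). FGA, the fibrinogen alpha chain, had a log2 fold change of -0.10. APOA1, the main protein of high-density lipoprotein, was at 159 and 155 FPKM, against 179 and 216 FPKM in control (log2 fold change -0.37). TTR, transthyretin, was at 21.8 and 20.2 FPKM, against 18.7 and 17.2 FPKM in control (0.19); neither was called. RBP4, the retinol carrier, was called lower (-1.02), but not without IWP2 with NaHCO3 replicate 2 (-0.91) or control replicate 2 (-0.95), and without control replicate 1 the median of the list was -0.02. The summed level of the plasma protein list overlapped between groups, at 1191 and 1243 FPKM with IWP2 and NaHCO3 and 1155 and 1215 FPKM in control.

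Among the 12 tested endoderm and liver transcription factors 1 was called higher and 2 lower (median -0.40), where 2.21% and 3.15% of all tested genes were. SOX17, an early factor of definitive endoderm that also marks some endothelium, was at 4.0 and 3.67 FPKM with IWP2 and NaHCO3, against 20.8 and 19 FPKM in control (log2 fold change -2.41, SE 0.12, adjusted p = 3.35e-15). HHEX, a homeobox factor of liver bud and vessels, was higher at 4.66 and 4.15 FPKM, against 1.23 and 1.25 FPKM in control. SOX17 had the largest fall of the 12. HNF4A and FOXA2, central factors of liver and gut endoderm, were lower within the limit on size. HNF4A was at 16.1 and 16.2 FPKM, against 25.9 and 29 FPKM in control (log2 fold change -0.80, adjusted p = 1.24e-08). FOXA2 had a log2 fold change of -0.89, or -1.06 without IWP2 with NaHCO3 replicate 1, which would be a call. Without IWP2 with NaHCO3 replicate 2, or without control replicate 1, 2 of the 12 were called higher. Of 16 tested epithelial adhesion and keratin genes 1 was called higher and 1 lower, while 12 were lower at an adjusted p under 0.05 of any size, and the median was -0.63. EPCAM, an epithelial adhesion protein, was at 33.1 and 30.1 FPKM, against 47.2 and 54.3 FPKM in control. CDH1, E-cadherin, had a log2 fold change of -0.71. CLDN3, a tight junction protein, was at 7.82 and 7.81 FPKM, against 18.2 and 19.1 FPKM in control (log2 fold change -1.29). KRT7, a keratin, was the 1 member called higher (1.18), and its log2 fold change was 0.83 without control replicate 1. Without IWP2 with NaHCO3 replicate 2, 2 epithelial genes were called lower.

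A pair of liver promoters is shown beside these values. HNF1 factors bind a palindrome whose half-site is GTTAAT, with ATTAAC on the other strand; 4 of the 10 matched plasma protein promoters (40%) and 463 of 9284 matched promoters of all tested genes (4.99%) held it in the 250 bases before the start. AFP (chr4:73435971-73436220, plus strand) and FGA (chr4:154590743-154590992, minus strand) have 1 match each, in capitals.
AFP: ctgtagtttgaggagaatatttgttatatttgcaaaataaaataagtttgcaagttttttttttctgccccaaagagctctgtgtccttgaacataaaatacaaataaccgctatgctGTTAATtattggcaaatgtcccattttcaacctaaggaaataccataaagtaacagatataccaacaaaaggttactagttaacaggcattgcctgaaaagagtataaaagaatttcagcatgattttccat
FGA: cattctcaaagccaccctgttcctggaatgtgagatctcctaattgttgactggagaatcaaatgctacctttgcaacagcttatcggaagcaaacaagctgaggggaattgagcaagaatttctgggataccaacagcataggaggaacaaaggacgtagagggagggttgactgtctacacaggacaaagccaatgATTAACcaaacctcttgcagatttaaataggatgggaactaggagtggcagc

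**Figure D2:**
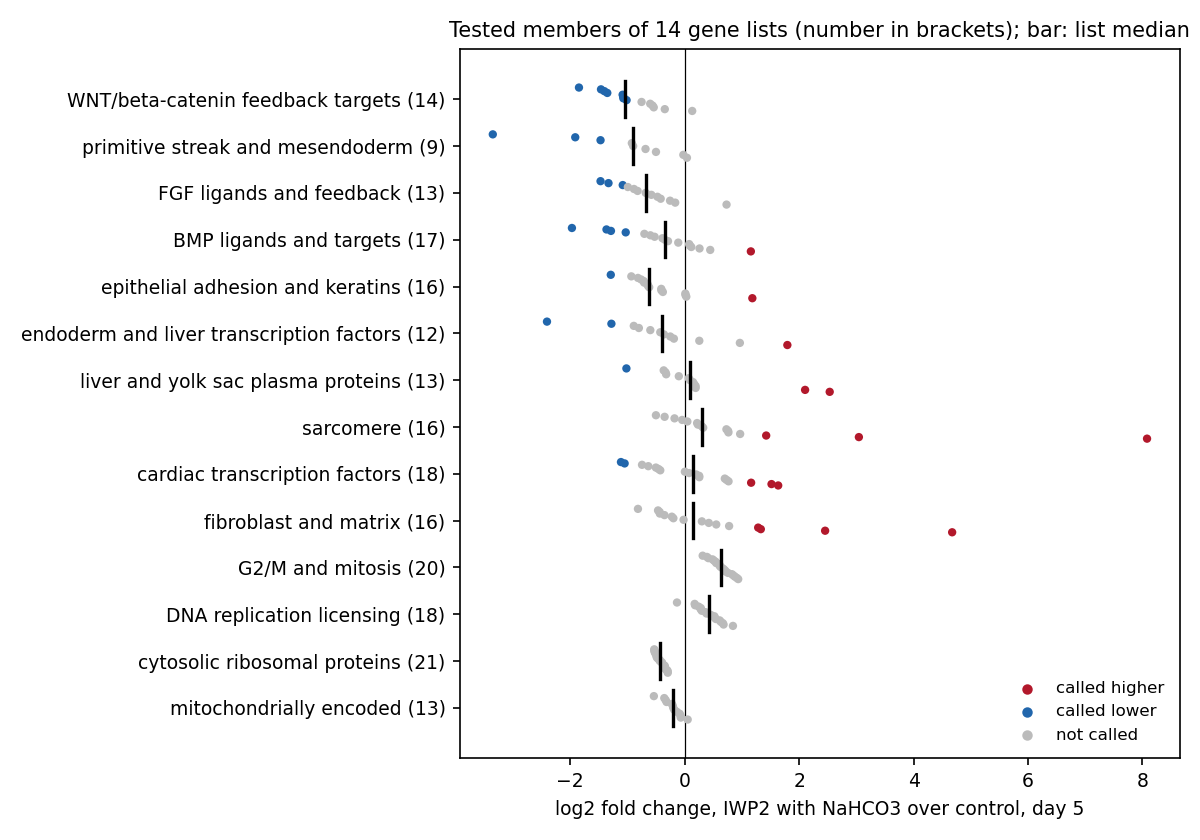
Log2 fold change of IWP2 with NaHCO3 over control on day 5 (horizontal axis) for each tested member of 14 gene lists (rows, with the number tested), coloured by call, with the list median as a bar. WNT targets lie left of 0 but for 1 gene, heart and liver lists spread around 0, and cell cycle and ribosomal protein genes move together by less than the limit on size.

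Genes of mesenchyme and matrix were higher for part of their list. Of 16 tested fibroblast and matrix genes 4 were called higher and none lower (median 0.14), where 2.21% and 3.15% of all tested genes were. At an adjusted p under 0.05 of any size, 8 were higher and 7 lower, where the shares of all genes were 17.1% and 19.1%. With the spread estimated over all 24 libraries of days 3 and 5, these counts were 6 and 2. LUM, lumican, a small proteoglycan of collagen fibrils, was at 273 and 268 FPKM with IWP2 and NaHCO3, against 87.5 and 123 FPKM in control (log2 fold change 1.33, SE 0.21, adjusted p = 0.00279). COL3A1, the chain of type III collagen, was at 1068 and 1133 FPKM, against 399 and 484 FPKM in control (log2 fold change 1.28, SE 0.22, adjusted p = 0.00395). DCN, decorin, rose to 3.09 and 3.2 FPKM, against 0.09 and 0.15 FPKM in control. POSTN, periostin, rose to 1.54 and 1.96 FPKM, against 0.24 and 0.39 FPKM in control. DCN and POSTN were below 1 FPKM in both control libraries and passed the filter through the treated ones. COL1A1, a chain of type I collagen, was not called, at 183 and 208 FPKM, against 247 and 241 FPKM in control (log2 fold change -0.35). The summed level of the list was 2380 and 2505 FPKM with IWP2 and NaHCO3, against 1709 and 1823 FPKM in control. In the epicardial and mesothelial list (7 tested of 12), WT1, a zinc finger factor of the epicardium and of mesothelium, was called higher at 6.27 and 7.77 FPKM, against 0.24 and 0.79 FPKM in control (log2 fold change 3.75, SE 0.31, adjusted p = 3.2e-08), as was UPK3B, a mesothelial surface protein (1.84). FOXF1, a factor of lateral plate and splanchnic mesoderm, was also higher, at 12.6 and 12.6 FPKM, against 4.54 and 5.3 FPKM in control.

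Among HOXB genes the posterior ones rose and the most anterior one fell. HOX genes give cells their position along the body axis, and those later in a cluster act further towards the tail. Of the 8 tested members of the HOX and CDX list, all of them HOXB1 to HOXB8, HOXB8, HOXB7 and HOXB6 were called higher and HOXB1 lower. HOXB8 was at 2.31 and 2.01 FPKM with IWP2 and NaHCO3, against 0.31 and 0.43 FPKM in control. HOXB7 was at 2.67 and 2.59 FPKM, against 0.50 and 0.64 FPKM in control. HOXB6, the most abundant of the 3, was at 44 and 44.9 FPKM, against 18 and 22.2 FPKM in control. The first 2 were below 1 FPKM in both control libraries and passed the filter through the treated ones. HOXB1 was at 1.4 and 0.97 FPKM, against 3.03 and 2.29 FPKM in control. HOXB6 fell just under the limit on size without control replicate 1 (0.97), and HOXB1 without IWP2 with NaHCO3 replicate 2 (-0.94) and without control replicate 1 (-0.97). Antisense transcripts overlap this cluster and the use of strand in counting is not stated, so these levels are uncertain to that extent. In the retinoic acid list, a pathway that patterns the same axis, 1 of 12 tested members was called higher and 3 lower, with RBP4, given above, among the lower ones. CYP26A1, which degrades retinoic acid, was at 5.01 and 5.4 FPKM with IWP2 and NaHCO3, against 0.75 and 1.13 FPKM in control. CRABP1, which binds it in the cytoplasm, was at 5.48 and 6.04 FPKM, against 21.6 and 20.5 FPKM in control. RARB, a receptor for it, was at 1.48 and 1.07 FPKM, against 4.76 and 3.44 FPKM in control.

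Vessel, amnion and other markers moved singly. TEK, the angiopoietin receptor of endothelium, was at 30.4 and 34.7 FPKM with IWP2 and NaHCO3, against 5.02 and 6.42 FPKM in control (log2 fold change 2.48, SE 0.10, adjusted p = 9.98e-17). VWF, another endothelial marker, was lower at 0.27 and 0.27 FPKM, against 1.87 and 1.75 FPKM in control. KDR, the receptor shared by mesoderm and endothelium, was not called (109.6 and 114 FPKM, against 97.5 and 94.9 FPKM in control). Of the 16 listed endothelial markers 11, CDH5 among them, were below the filter, and the summed level of the list was 161 and 170.2 FPKM with IWP2 and NaHCO3, against 123 and 121 FPKM in control. Of 11 tested amnion and trophoblast genes 3 were called higher (VTCN1, IGFBP3 and KRT7) and 1 lower. VTCN1, a surface protein of the B7 family, was at 1.97 and 2.05 FPKM, against 0.13 and 0.42 FPKM in control. IGFBP3, a binding protein of insulin-like growth factors, was at 118 and 122 FPKM, against 39.4 and 39.3 FPKM in control. The lower call, TFAP2C (-1.02) was lost without IWP2 with NaHCO3 replicate 2 (-0.95, adjusted p = 0.0612) and without control replicate 1 (-0.98). Among 5 tested neural and anterior genes of 15 listed, LHX2, a homeobox factor, was called higher (2.67) and ZIC2, a zinc finger factor, lower (-1.30). Of 15 blood genes 4 were tested and of 11 skeletal muscle genes 1, ACTN3, which was called lower; 4 of the 11 had 0 counts in all 4 libraries. The part of these other cell types in the results on heart and liver genes was not tested. Of 9 tested imprinted genes 3 were called higher. H19, a long RNA of fetal growth, was at 3511 and 3315 FPKM, against 1380.2 and 1389 FPKM in control (log2 fold change 1.27). Its neighbour IGF2, a fetal growth factor, was at 475 and 496 FPKM, against 234 and 238 FPKM in control. IGF2 stood at the limit on size, with 0.996 without IWP2 with NaHCO3 replicate 2 and 0.998 without control replicate 1, as did DLK1 (1.01, with 0.95 without IWP2 with NaHCO3 replicate 1 and 0.9 without control replicate 2).

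Proliferation genes were slightly higher and ribosomal protein genes slightly lower, each as a block and each below the limit on size. All 20 tested genes of G2/M and mitosis were higher at an adjusted p under 0.05, where 17.1% of all tested genes were, with a median log2 fold change of 0.64; MKI67, the proliferation marker, was at 17.2 and 18.6 FPKM with IWP2 and NaHCO3, against 12 and 10.9 FPKM in control. Of 18 DNA replication genes 15 were higher (median 0.42). All 21 tested cytosolic ribosomal protein genes were lower (median -0.43, where 19.1% of all genes were lower); their reads can be shared with near-identical pseudogenes. The share of counts from mitochondrially encoded genes was 3.55% and 3.52% with IWP2 and NaHCO3, against 3.91% and 3.94% in control, and 7 of these 13 genes were lower at an adjusted p under 0.05. The medians of these lists kept their sign under all 13 alternatives; when the spread was estimated over all 24 libraries of days 3 and 5 instead, 17 G2/M genes were higher, but none of the ribosomal protein or mitochondrially encoded genes was lower.

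Genes of glucose use and of acid-base transport showed few calls. Of 21 tested glycolysis genes, 12 were higher and 4 lower at an adjusted p under 0.05 of any size, where 17.1% and 19.1% of all tested genes were, and 5 were higher and 2 lower when the spread was estimated over all 24 libraries of days 3 and 5. The 1 called member, SLC2A3, a glucose transporter, was at 146 and 135 FPKM with IWP2 and NaHCO3, against 279.8 and 283 FPKM in control, and fell under the limit on size without IWP2 with NaHCO3 replicate 2 (-0.96). SLC2A1, the most widespread glucose transporter, was at 57.8 and 66 FPKM, against 39.1 and 41.2 FPKM in control (log2 fold change 0.59). LDHA, lactate dehydrogenase, was at 28.6 and 26.3 FPKM, against 20.5 and 18.7 FPKM in control (0.45). Both were higher at an adjusted p under 0.05 within the limit on size. Of 13 proton, bicarbonate and lactate transporters, SLC4A8, a sodium-driven bicarbonate exchanger, was called at 7.19 and 8.95 FPKM, against 3.06 and 3.16 FPKM in control (log2 fold change 1.34, SE 0.14, adjusted p = 2.49e-06); without control replicate 1, 2 of the 13 were called. The bicarbonate cotransporter SLC4A4 was at 1.41 and 1.16 FPKM, against 0.95 and 1.07 FPKM in control, and was not called. None of the 5 tested carbonic anhydrases was called by edgeR or by any alternative, while 3 were lower at an adjusted p under 0.05 of any size, or 1 with the spread over all 24 libraries; CA2, the most widespread of them, had a log2 fold change of -0.48. PPARGC1A, a coactivator of mitochondrial genes, was called higher at 1.88 and 2.03 FPKM, against 0.57 and 0.65 FPKM in control. ADM, a hypoxia-inducible peptide, was called lower at 2.8 and 2.56 FPKM, against 8.17 and 7.73 FPKM in control.

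The 12 largest rises and 12 largest falls, taken among called genes whose higher group averaged 5 FPKM or more, included several of low level in the other group. SLN, sarcolipin, a small inhibitor of the muscle calcium pump (GRCh37 chr11:107578104-107590419, minus strand), was at 5.24 and 6.95 FPKM with IWP2 and NaHCO3 and had 0 counts in both control libraries, which makes it at least 34-fold higher when control is set at a floor of 3 counts per library. SPRR2F, a cornified envelope protein of a family of near-identical genes, had 146 counts against 1 in control, a ratio of 132 with a 95% exact counting interval of 23.4 to 5260. RERG, a small GTPase, was at 10.5 and 11.3 FPKM, against 0.23 and 0.50 FPKM in control (log2 fold change 4.89, SE 0.18, adjusted p = 7.62e-18). AQP1, a water channel, was at 16.7 and 21 FPKM, against 1.56 and 1.87 FPKM in control (log2 fold change 3.43, SE 0.13, adjusted p = 6.2e-17). PITX3, a homeobox factor, was at 11.5 and 15.5 FPKM, against 0.18 and 0.70 FPKM in control. The other rises in this group were AC105227.1, AKR1B15, CXCL14, WT1, DSC3, C7 and ITGA11, with log2 fold changes of 3.2 to 4.18. Among them C7, a complement component, was at 22.3 and 24.9 FPKM, against 1.69 and 2.02 FPKM in control. CXCL14, a chemokine, was at 7.02 and 9.33 FPKM, against 0.54 and 0.61 FPKM in control. DSC3, a desmosomal cadherin, was at 14.5 and 18 FPKM, against 1.08 and 1.47 FPKM in control. The groups did not overlap in any of the 12, which the choice of these genes requires. AC105227.1 is a very short gene and AKR1B15 has a close paralogue, so both levels are uncertain.

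The largest falls were in the cystatin pair CST1 and CST4, secreted protease inhibitors with nearly the same sequence (GRCh37 chr20:23728190-23731905 and chr20:23666277-23669677, minus strand), so that reads may be divided wrongly between them. CST1 was at 4.02 and 5.58 FPKM with IWP2 and NaHCO3, against 54.9 and 57 FPKM in control (log2 fold change -3.58, SE 0.23, adjusted p = 4.67e-10). CST4 was at 0.43 and 0 FPKM, against 8.63 and 8.61 FPKM in control. Both treated libraries lay below both control libraries, as the choice of these genes requires. CFC1, cryptic, a coreceptor of NODAL with a near-identical copy in the genome, was at 12.1 and 13.3 FPKM, against 91.4 and 73.7 FPKM in control (log2 fold change -2.74, SE 0.18, adjusted p = 1.31e-08). CBLN2, a cerebellin, was at 4.83 and 4.0 FPKM, against 20.9 and 17.1 FPKM in control. COL9A2, a collagen chain, was at 12.3 and 11.7 FPKM, against 50.9 and 45.3 FPKM in control. SOX17, above, belongs to the same 12, with RP11-256I9.2, MEIS1-AS3, SUSD3, HS3ST3A1, RP11-426L16.8 and S100A14 as the rest. The log2 fold changes of the 12 ran from -5.24 to -2.01. MEIS1-AS3 lies antisense to MEIS1, and without strand its reads cannot be told from that gene's.

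**Figure D3:**
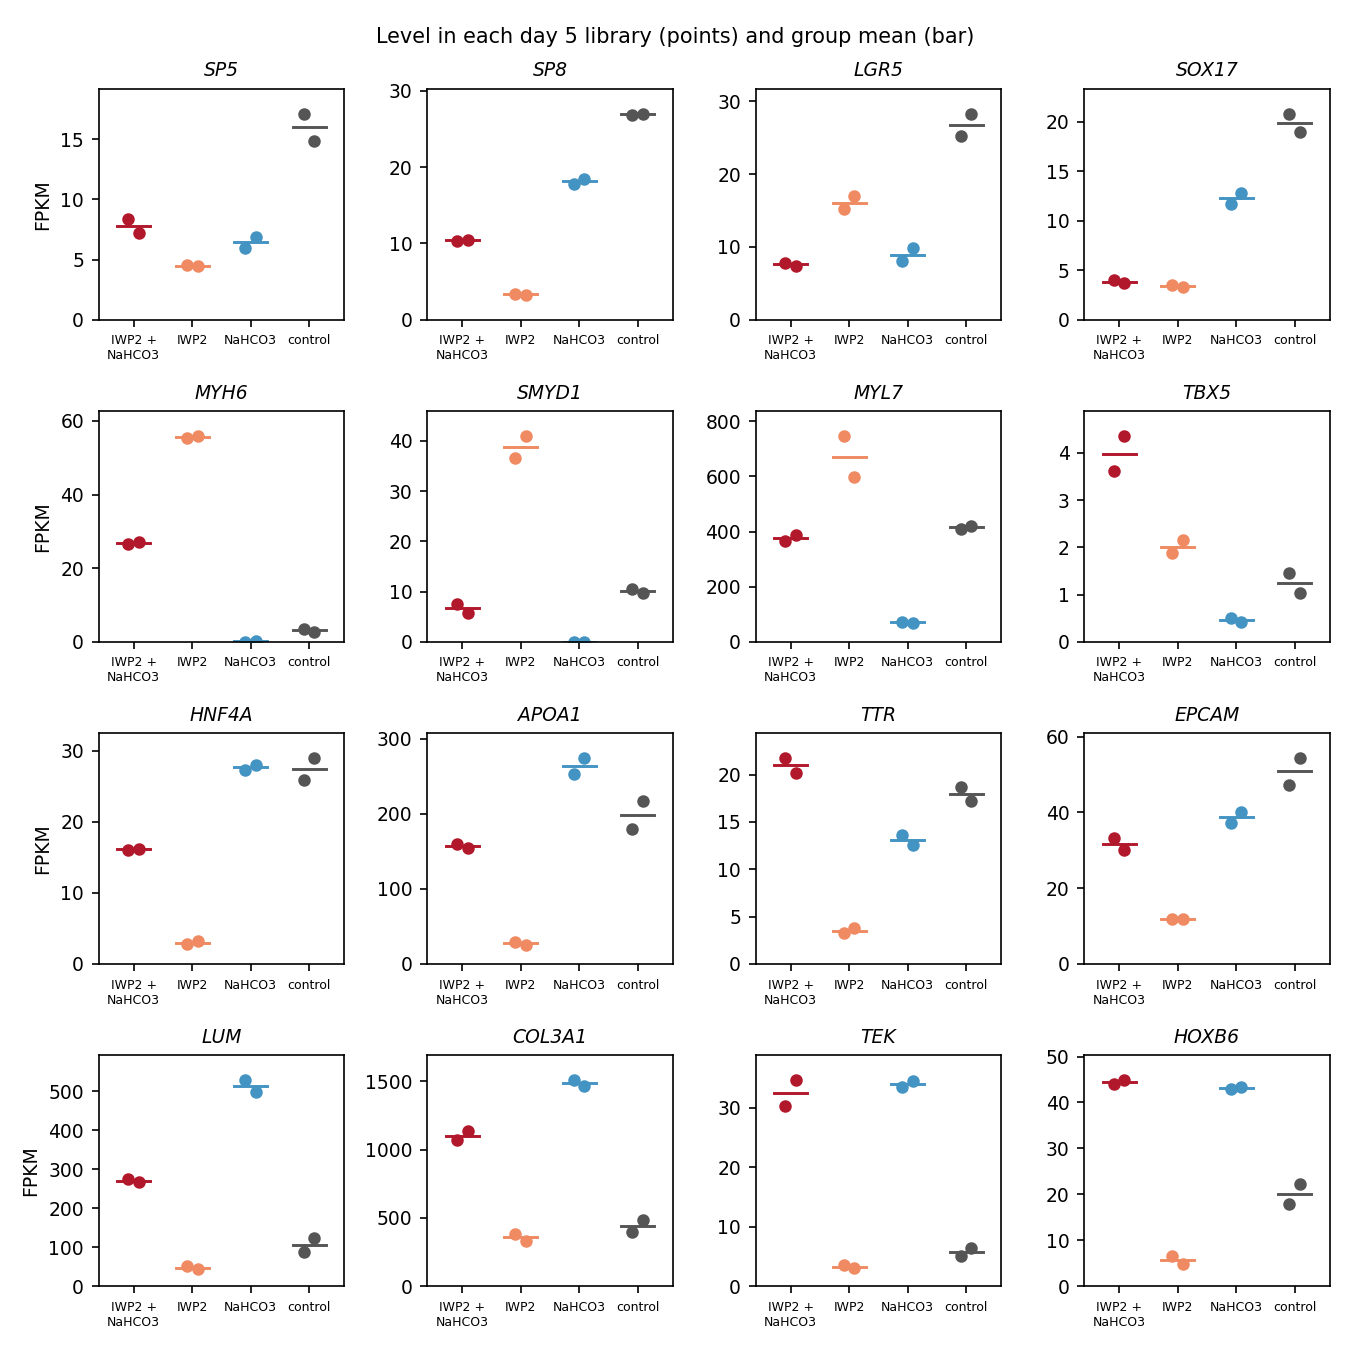
Level in FPKM (vertical axes, from 0) of 16 genes in each day 5 library of IWP2 with NaHCO3, IWP2, NaHCO3 and control (left to right), with points for libraries and bars for the mean of 2. MYH6, SMYD1 and MYL7 are highest with IWP2 and lowest with NaHCO3, HNF4A, APOA1, TTR and EPCAM are lowest with IWP2, and LUM, COL3A1, TEK and HOXB6 are higher in both groups with NaHCO3 than in control.

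Each agent was also given alone, in 2 libraries each, with the same control libraries; the comparisons with control share those libraries, so their values are set side by side and not tested for likeness. All contrasts used the same tested genes, chosen by the joint and control libraries of day 5. Genes that reached 1 FPKM only with 1 agent alone were thus not tested. Against control, IWP2 alone gave 962 called genes (6.7%), 250 (1.74%) higher and 712 (4.96%) lower, and NaHCO3 alone 863 (6.01%), 328 (2.28%) higher and 535 (3.73%) lower. IWP2 with NaHCO3 differed from IWP2 alone in 851 genes (5.93%), 547 (3.81%) higher and 304 (2.12%) lower, and from NaHCO3 alone in 672 genes (4.68%), 366 (2.55%) higher and 306 (2.13%) lower. The interaction, which asks whether the joint log2 change differs from the sum of both single changes, was called for 733 genes (5.1%), 599 (4.17%) positive and 134 (0.933%) negative. Thus most called interactions put the joint level above the sum of both.

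For the heart muscle lists the medians of the single agents pointed in opposite directions and the joint median lay between them. Not every member did so: MYBPC3 and TBX5, both of low level, had higher FPKM with both agents than with IWP2 alone. No sarcomere gene, MYBPC3 included, was called higher in that comparison, and 6 were called lower. The sarcomere list had 12 of 16 members called higher with IWP2 alone, where 1.74% of all tested genes were. With NaHCO3 alone 1 was called higher and 9 lower, where 2.28% and 3.73% of all tested genes were. With both agents 3 were called higher, where 2.21% of all tested genes were. The median log2 fold changes of the list against control were 0.31 with both, 1.22 with IWP2 and -1.19 with NaHCO3. MYH6 was at 26.5 and 27.1 FPKM with both agents, 55.4 and 56 FPKM with IWP2, 0.07 and 0.12 FPKM with NaHCO3 and 3.52 and 2.8 FPKM in control. SMYD1, a methyltransferase needed for heart muscle formation, was at 7.61 and 5.77 FPKM with both, 36.7 and 41 FPKM with IWP2, 0.01 and 0 FPKM with NaHCO3 (1 count over both libraries) and 10.6 and 9.73 FPKM in control. UNC45B, a myosin chaperone, was at 9.01 and 7.8 FPKM with both, 30.4 and 32.6 FPKM with IWP2, 0.01 and 0.06 FPKM with NaHCO3 and 8.74 and 7.14 FPKM in control. These 3 genes were nearly silent with NaHCO3 alone, and with both agents they lay below IWP2 alone: the log2 difference from IWP2 alone was -1.09 for MYH6, -2.57 for SMYD1 and -1.94 for UNC45B, each called. Against NaHCO3 alone the log2 difference of MYH6 was 8.04 and that of UNC45B 7.79, and SMYD1 had a ratio of 1090 with a 95% exact counting interval of 195 to 43000. The interaction was 3.90 for MYH6 (SE 0.34, adjusted p = 5.33e-07), 1.66 for MYL7, 2.36 for TBX5 and 1.08 for GATA4. It was called for 5 sarcomere genes with a positive and 2 with a negative sign and for 7 of 18 cardiac transcription factors, all positive. Among all tested genes 4.17% had a positive and 0.933% a negative called interaction. GATA4 stood at the limit on size (0.995 without control replicate 1), and with limma on log2(FPKM + 1), which understates changes of low levels, the value of MYH6 was 0.90. ATOH1, a basic helix-loop-helix factor known from inner ear and gut, had its levels in the same order as SMYD1: 6.8 and 7.86 FPKM with both, 32.3 and 32.5 FPKM with IWP2, 0 counts with NaHCO3 and 9.76 and 8.58 FPKM in control, at least 50.3-fold higher with both than with NaHCO3 alone at the floor of 3 counts per library.

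For liver and yolk sac genes IWP2 alone was the low group. It had 12 of 13 plasma protein genes called lower (median -2.77), where 4.96% of all tested genes were. NaHCO3 alone had 2 called higher and none lower (median 0.45), where 2.28% and 3.73% of all tested genes were. The joint culture had a median of 0.09. APOA1 was at 159 and 155 FPKM with both agents, 29.3 and 25.3 FPKM with IWP2, 254 and 274 FPKM with NaHCO3 and 179 and 216 FPKM in control. TTR was at 21.8 and 20.2 FPKM with both, 3.25 and 3.79 FPKM with IWP2, 13.6 and 12.6 FPKM with NaHCO3 and 18.7 and 17.2 FPKM in control. HNF4A was at 16.1 and 16.2 FPKM with both, 2.79 and 3.23 FPKM with IWP2, 27.3 and 28 FPKM with NaHCO3 and 25.9 and 29 FPKM in control. In each the IWP2 libraries were lowest and the joint libraries lay nearer to control than to IWP2 alone. Against IWP2 alone, 12 of 13 plasma protein genes and 8 of 12 endoderm factors were called higher with both agents and none lower, where 3.81% of all genes were called higher. The interaction was called positive for 11 of 13 plasma protein genes, 9 of 12 endoderm factors and 11 of 16 epithelial genes, against 4.17% of all tested genes, with values of 2.04 for APOA1, 2.96 for TTR, 2.34 for HNF4A, 2.51 for FOXA2 and 1.73 for EPCAM. AFP also had a called interaction (2.99), and that call was lost without IWP2 replicate 1 (adjusted p = 0.051), without IWP2 replicate 2 (adjusted p = 0.113) and without control replicate 2 (adjusted p = 0.199, with an interaction of 1.65). It was also lost with only the groups of the contrast in the fit (adjusted p = 0.054), with all 24 libraries of days 3 and 5 (adjusted p = 0.0661), and with limma on log2(FPKM + 1) (adjusted p = 0.19) and on log2(FPKM + 0.1) (adjusted p = 0.154).

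**Figure D4:**
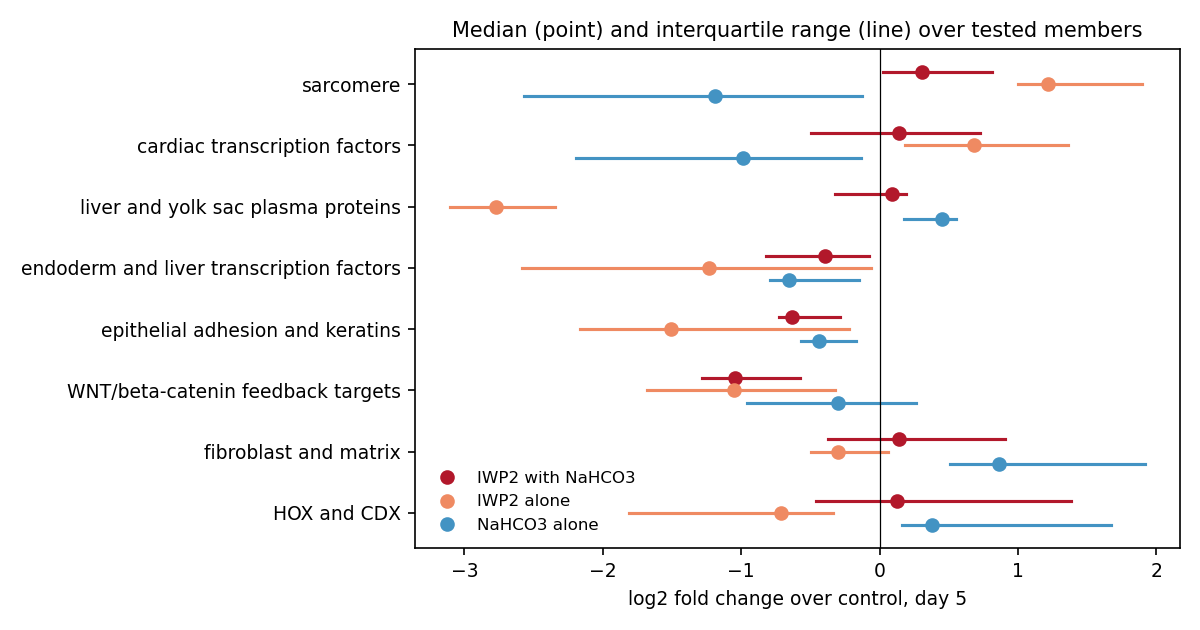
Median (points) and interquartile range (lines) of the log2 fold change over control (horizontal axis) across the tested members of 8 gene lists (rows), for IWP2 with NaHCO3, IWP2 alone and NaHCO3 alone, which share the control libraries. Heart lists lie right of 0 with IWP2 and left of 0 with NaHCO3, plasma proteins far left with IWP2 only, and the joint points of these lists stand nearer to 0; for WNT targets the joint median (-1.04) and that with IWP2 (-1.05) lie together.

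For WNT targets the joint cultures and IWP2 alone had nearly the same median. Their median log2 fold change against control was -1.04 with both agents, -1.05 with IWP2 alone and -0.30 with NaHCO3 alone, and between joint and IWP2 cultures SP8 was called higher and LGR5 lower. Single members differed: SP8 was at 10.4 and 10.5 FPKM with both, 3.4 and 3.25 FPKM with IWP2, 17.9 and 18.4 FPKM with NaHCO3 and 26.9 and 27 FPKM in control. LGR5 was at 7.79 and 7.44 FPKM with both, 15.2 and 16.9 FPKM with IWP2, 8.04 and 9.82 FPKM with NaHCO3 and 25.3 and 28.3 FPKM in control. SP8 was thus lowest with IWP2, and LGR5 lower with both agents and with NaHCO3 than with IWP2. The interaction of SP5 was 2.04 and that of DKK1 1.52, both called: each agent alone lowered these genes against control, and both together lowered them by less than the sum. SOX17 was at 4.0 and 3.67 FPKM with both, 3.5 and 3.28 FPKM with IWP2, 11.7 and 12.8 FPKM with NaHCO3 and 20.8 and 19 FPKM in control. CST1 was at 4.02 and 5.58 FPKM with both, 1.57 and 2.6 FPKM with IWP2, 17.3 and 25.2 FPKM with NaHCO3 and 54.9 and 57 FPKM in control. S100A14, a calcium-binding protein of epithelia, lay between IWP2 and control: 12.2 and 12.8 FPKM with both, 2.47 and 2.88 FPKM with IWP2, 64.8 and 66.7 FPKM with NaHCO3 and 46.4 and 52 FPKM in control.

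TEK, AQP1 and POSTN rose with both agents and with NaHCO3 alone. TEK was at 30.4 and 34.7 FPKM with both, 3.55 and 3.02 FPKM with IWP2, 33.6 and 34.5 FPKM with NaHCO3 and 5.02 and 6.42 FPKM in control. AQP1 was at 16.7 and 21 FPKM with both, 1.36 and 1.02 FPKM with IWP2, 36.2 and 35.7 FPKM with NaHCO3 and 1.56 and 1.87 FPKM in control. POSTN was at 1.54 and 1.96 FPKM with both, 0.26 and 0.15 FPKM with IWP2, 23.4 and 20.4 FPKM with NaHCO3 and 0.24 and 0.39 FPKM in control. TEK (log2 difference -0.13, SE 0.09) was not called between both agents and NaHCO3 alone. AQP1 (-0.999, SE 0.10) was lower with both and fell just short of the limit on size, while POSTN (-3.72) was called lower with both. SLN, at 0 counts in control, was at 33.4 and 32.1 FPKM with NaHCO3 alone. HOXB8 was likewise lower than with NaHCO3 alone (-3.58), at 24.6 and 24.9 FPKM in that group. Of the fibroblast and matrix list 6 of 16 members were called higher with NaHCO3 alone and 4 with both. The shares of all tested genes were 2.28% and 2.21%. Against NaHCO3 alone, 6 of 16 were called lower with both agents, where 2.13% of all tested genes were. The largest calls against NaHCO3 alone were ATOH1, SMYD1, MYH6, UNC45B and WT1 in the positive direction and RP11-256I9.2, POSTN, HOXB8, PITX1 (-3.43) and SLC39A2 (-3.11) in the negative. Against IWP2 alone they were SLN, AC105227.1 (4.56), ALOX15 (4.37), AC078899.5 (4.02) and AQP1 (3.94) and, in the negative direction, SLC16A12 (-3.45), SYNDIG1L (-3.43), BRINP2 (-3.27), CALB2 (-3.15) and PGA4 (-2.73). AC078899.5 had 23 counts with both agents and 1 with IWP2 alone, and its call was lost without IWP2 with NaHCO3 replicate 1 (adjusted p = 0.243) or IWP2 replicate 1 (adjusted p = 0.103); PGA4 shares its sequence with PGA3 and PGA5.

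Some genes rose with each agent alone and, with both, rose by less than the sum of these log2 rises, which gives a negative interaction. RERG was at 10.5 and 11.3 FPKM with both, 9.82 and 9.74 FPKM with IWP2, 14.7 and 14.5 FPKM with NaHCO3 and 0.23 and 0.50 FPKM in control. RSPO2 was at 17.6 and 21.6 FPKM with both, 46.9 and 43.2 FPKM with IWP2, 51.2 and 51.4 FPKM with NaHCO3 and 5.17 and 5.2 FPKM in control. GFRA3, a coreceptor of the artemin growth factor, was at 1.76 and 2.41 FPKM with both, 5.31 and 4.48 FPKM with IWP2, 9.26 and 10.1 FPKM with NaHCO3 and 0.96 and 0.81 FPKM in control. RERG was thus raised by each treatment to between 9.74 and 14.7 FPKM, and RSPO2 and GFRA3 were lower with both agents than with either alone. RPRM, a p53-induced brake of the cell cycle, was at 1.97 and 2.02 FPKM with both, 4.21 and 5.0 FPKM with IWP2, 8.28 and 9.45 FPKM with NaHCO3 and 1.13 and 1.52 FPKM in control. WT1 ran the other way: it was at 6.27 and 7.77 FPKM with both, 1.37 and 0.76 FPKM with IWP2, 0.03 and 0.04 FPKM with NaHCO3 and 0.24 and 0.79 FPKM in control, so it was highest with both agents. MYBPC3 was at 1.4 and 1.63 FPKM with IWP2, a little below its joint level, and had 3 counts over both NaHCO3 libraries. TBX5 was at 1.87 and 2.16 FPKM with IWP2 and 0.50 and 0.42 FPKM with NaHCO3, below its joint level.

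On day 3 fewer genes were called between the same pair of groups: 356 of the 14360 (2.48%), 229 (1.59%) higher and 127 (0.884%) lower, against 702 on day 5 in a fit over the same 24 libraries, and the effect on day 5 differed from that on day 3 in 671 genes (4.67%). This fit takes in all 24 libraries of days 3 and 5. Its genes were chosen by their levels in the day 5 libraries, so genes expressed on day 3 only were not tested. The counts of calls on the 2 days are therefore not on an equal footing. MYH6 and HNF4A were still low on day 3: MYH6 was at 0.01 and 0.10 FPKM with IWP2 and NaHCO3 and 0.09 and 0.12 FPKM in control, and HNF4A was at 0.66 and 0.79 FPKM with IWP2 and NaHCO3 and 0.68 and 0.67 FPKM in control. Yet 5 of 18 cardiac transcription factors and 2 of 16 sarcomere genes were called higher on day 3 and none lower, where 1.59% of all tested genes were called higher. No tested plasma protein gene or endoderm factor was called on that day. WNT targets had 1 of 14 members called lower on day 3 (median -0.27): DKK1 was at 0.98 and 1.1 FPKM, against 9.27 and 9.99 FPKM in control. LOX, an enzyme that crosslinks collagen, was at 1.25 and 1.52 FPKM on day 3, against 16.6 and 22.2 FPKM in control, and on day 5 at 3.07 and 3.43 FPKM, against 0.56 and 0.77 FPKM in control, so its difference changed sign (day 5 minus day 3 effect 6.06, SE 0.31). PITX3 changed sign too, with 0.33 and 0.10 FPKM on day 3, against 0.95 and 1.71 FPKM in control. In the opposite direction, MYOCD was at 3.54 and 2.67 FPKM on day 3, against 0.41 and 0.23 FPKM in control. NOS2, inducible nitric oxide synthase, was at 12 and 7.49 FPKM, against 2.43 and 1.04 FPKM in control. Both were lower than control on day 5, NOS2 with 0.63 and 0.42 FPKM, against 4.48 and 3.85 FPKM in control. H19 was higher than control on both days, at 264 and 156 FPKM on day 3, against 23.9 and 11.9 FPKM in control. Of the 8 tested HOX genes 5 were called higher on day 3, where 1.59% of all tested genes were. For 6 of the 8 the day 5 minus day 3 effect was called negative, as for 3.04% of all tested genes.

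**Figure D5:**
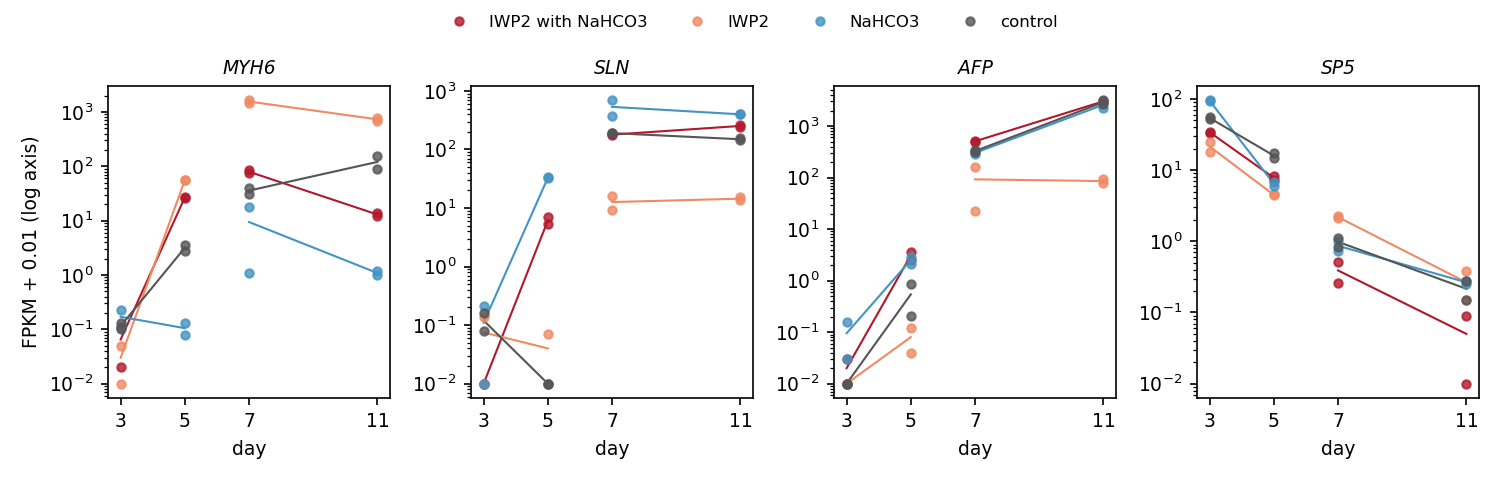
Level of MYH6, SLN, AFP and SP5 in each library (points, FPKM + 0.01, log axis) of IWP2 with NaHCO3, IWP2, NaHCO3 and control on days 3, 5, 7 and 11 (horizontal axis), with lines between group means within a table; days 3 and 5 and days 7 and 11 were deposited in separate tables. In MYH6 the joint cultures lie between IWP2 alone and control on days 5 and 7 and below control on day 11, and in AFP they lie above IWP2 alone from day 5.

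Levels on days 7 and 11 come from a separate table and are given as a description. MYH6 was at 74.6 and 84 FPKM on day 7 and 13.5 and 12.3 FPKM on day 11 with IWP2 and NaHCO3, 1635 and 1468 FPKM and 685 and 773 FPKM with IWP2 alone, and 31.1 and 40.2 FPKM and 88.6 and 152 FPKM in control. AFP was at 499 and 513 FPKM on day 7 and 3109 and 2934 FPKM on day 11 with IWP2 and NaHCO3, 22.2 and 162 FPKM and 92.3 and 78.8 FPKM with IWP2 alone, and 317 and 336 FPKM and 2635 and 3158 FPKM in control. On day 5 both joint libraries lay above both control libraries in MYH6, and on day 11 they lay below them. In cultures given 2-DG, an inhibitor of glycolysis, on top of both agents, MYH6 was at 223 and 184 FPKM on day 5 and HNF4A at 2.15 and 1.62 FPKM, against 26.5 and 27.1 FPKM for MYH6 and 16.1 and 16.2 FPKM for HNF4A with IWP2 and NaHCO3 only.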

How the data were processed

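Per the labels' protocols, RNAiso Plus was the extraction reagent, and the VAHTS Universal V8 kit turned 1 µg of RNA into each library. The submitters' processing notes name cutadapt 1.9.1, HISAT2 2.0.1, HTSeq 0.6.1 and the GRCh37 build; their settings and any use of strand are not given in the sources used here. The authors deposited whole-number read counts per gene and, beside them, FPKM values; FPKM recomputed from the counts and the deposited lengths had a median ratio of 1.0 to the deposited FPKM. Days 3 and 5 share 1 table, and days 0, 7 and 11 lie in another, so tests were made within days 3 and 5 only.

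The counts of the 12 day 5 libraries (6 groups of 2) were fitted with edgeR 4.0.16 in R 4.3.3, with TMM scaling, 1 coefficient a group and the quasi-likelihood test; limma 3.58.1 and DESeq2 1.42.0 served as alternatives. In every contrast the genes were those with at least 1 FPKM in 2 or more of the 4 day 5 libraries of IWP2 with NaHCO3 and of control. The p-values were adjusted (Benjamini-Hochberg) over all 14360 of them, in each contrast. Standard errors were derived from the fold change and the test statistic. The biological coefficient of variation was 0.0629, and no 2 libraries of a group agreed within sampling noise. Counting intervals and floors cover counting error only. In simulated counts for these 14360 genes with 200 changed, the test called 54% of genes changed 2-fold, 98% at 3-fold, 100% at 4-fold and 100% at 8-fold. A 2-fold change lies at the limit on size itself, so the share called there reflects that limit too. The test also called 3 unchanged genes. The simulated counts took their spread from the fit to these data, so this number is no error rate for the real libraries. The 200 were drawn from genes above a minimum expected count in the smallest library, so these shares do not cover genes of low level.

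The members and the gene lists were chosen with earlier results of these data known, and the lists were written from general knowledge, with some overlap between them. Genes named are the 12 largest changes in each direction with non-overlapping groups and at least 5 FPKM in the higher group, up to 4 called members of each list, a fixed panel, and 5 in each direction for the other contrasts; a few more (such as ACTN3, IRX3, TNFRSF19, SFRP5, COL1A1 and FGA) were named after their values were seen. Alternatives were DESeq2, other size factors, other filters, fits with fewer or more libraries, limma on log2(FPKM + 1) and log2(FPKM + 0.1), the replicate number as a block, and leaving out each library in turn. Promoter windows come from RefSeq on GRCh38.p14. No library or column of these tables was left out, and some called genes are not reported here.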

Additional observations from a re-analysis of the deposited data

Results flagged for a closer look

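A first group of values comes from the test of whether the change with both agents differs from the sum of the changes with each alone, on the log2 scale by edgeR's quasi-likelihood test with Benjamini-Hochberg adjustment. It called 733 genes. The 5 with the largest positive values were ATOH1 (8.42), SMYD1 (7.77), WT1 (6.45), UNC45B (5.80) and MIR3131 (4.50). The first 2 had 0 counts or 1 count over both NaHCO3 libraries, and MIR3131 had 1 count over both IWP2 libraries, so these fitted values depend on the prior count and are no bounds. MIR3131 was at 8.05 and 4.88 FPKM with both agents, 0 and 0.86 FPKM with IWP2, 7.47 and 7.91 FPKM with NaHCO3 and 18.4 and 10.9 FPKM in control, and its call was lost without IWP2 with NaHCO3 replicate 1 (adjusted p = 0.116), without IWP2 replicate 1 (adjusted p = 0.112) and without control replicate 1 (adjusted p = 0.0821). Such a short gene holds few reads in these libraries: 17 counts with both agents and 1 with IWP2 alone. The 5 most negative values were those of RERG (-5.27), GFRA3 (-4.74), RSPO2 (-4.58), RPRM (-4.03) and POSTN (-3.13). The first 4 of these rose with each agent alone, and POSTN rose with NaHCO3 alone.

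Among the heart genes of the panel the values were 3.90 for MYH6, 1.66 for MYL7, 2.36 for TBX5 and 1.08 for GATA4. Liver and epithelial genes had 2.99 for AFP, 2.96 for TTR, 2.04 for APOA1, 2.34 for HNF4A, 2.51 for FOXA2 and 1.73 for EPCAM. The WNT targets SP5 and DKK1 had 2.04 and 1.52, and PPARGC1A, a coactivator of mitochondrial genes, had 1.67, or 0.34 with limma on log2(FPKM + 1). GATA4 and AFP were the members of this group whose calls were lost when 1 library was left out, with the values given above.

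A second group of values comes from the test of whether the effect of IWP2 with NaHCO3 over control differs between day 5 and day 3, which called 671 genes. The 5 largest positive differences were in SLN (13.45), AC105227.1 (11.90), PITX3 (7.49), AKR1B15 (7.36) and LOX (6.06). SLN had 0 counts with IWP2 and NaHCO3 on day 3 and 0 counts in control on day 5, and AKR1B15 and AC105227.1 had 0 counts with IWP2 and NaHCO3 on day 3, so their fitted values depend on the prior count. AC105227.1 was at 0 and 0 FPKM with IWP2 and NaHCO3 on day 3, against 14.2 and 14.1 FPKM in control. Without control replicate 1 of day 3, the calls of SLN (adjusted p = 0.0615) and AKR1B15 (adjusted p = 0.14) were lost.

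The 5 most negative differences were in SOAT2 (-6.51), NOS2 (-5.48), CBLN2 (-4.92), HOXB-AS2 (-4.81) and MYOCD (-4.37). SOAT2, an enzyme that esterifies cholesterol, was at 0.06 and 0.17 FPKM with IWP2 and NaHCO3 on day 3, against 0 counts in control, and at 4.56 and 4.76 FPKM on day 5, against 12.6 and 12.8 FPKM in control. CBLN2 was at 0.78 and 0.42 FPKM with IWP2 and NaHCO3 on day 3, against 0.10 and 0.07 FPKM in control. HOXB-AS2, an antisense transcript of the HOXB cluster, was at 0.86 and 1.28 FPKM with IWP2 and NaHCO3 on day 3, against 0.10 and 0 FPKM in control. All 3 were thus low on day 3, and the call of SOAT2 was lost without IWP2 with NaHCO3 replicate 2 of day 3 (adjusted p = 0.0805), as was that of HOXB-AS2 (adjusted p = 0.0532), which was lost without control replicate 2 of day 3 as well (adjusted p = 0.0517). The cause of none of these differences was tested.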

How the results depend on the processing

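The comparison with control kept its 770 calls within 1.5 times under 11 of 13 alternatives, and the median log2 fold change of all genes ran from -0.0183 to 0.0208. With no filter on low values, which tests more genes, 1244 genes were called (520 higher, 724 lower), against IWP2 alone 1382 (869 and 513) and against NaHCO3 alone 1200 (596 and 604). With limma on log2(FPKM + 1), which shrinks the folds of low genes, 336 were called (178 higher, 158 lower), against IWP2 alone 462 (316 and 146), against NaHCO3 alone 363 (227 and 136), for the interaction 415 (342 positive, 73 negative), and 264 negative for the day effect. With a filter over 24 libraries, 483 genes were lower than with NaHCO3 alone. DESeq2 called 698 against control, 694 of them among the 770.

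Leaving out 1 library gave 683 to 789 calls against control (289 to 329 higher, 394 to 460 lower), 817 to 880 against IWP2 alone (520 to 580 and 279 to 303), 616 to 663 against NaHCO3 alone (339 to 354 and 277 to 312), 668 to 822 for the interaction (539 to 674 and 121 to 148) and 505 to 647 for the day effect (184 to 224 and 321 to 423). Of the 100 called genes named for the comparison with control, 27 lost the call under limma on log2(FPKM + 1), 14 without IWP2 with NaHCO3 replicate 2, and 12 without control replicate 1; none changed sign. Among uncalled genes 3 did. UNC45B had -0.055 without IWP2 with NaHCO3 replicate 1 and, over left-out libraries, -0.095 to 0.208. FGA had -0.235 to 0.037, with 0.005 without IWP2 with NaHCO3 replicate 1, and EOMES -0.124 to 0.093, with 0.001 under the 24-library filter and 0.007 and 0.008 under limma on log2(FPKM + 1) and log2(FPKM + 0.1).

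Libraries of the same number did not deviate together (r from -0.057 to 0.077 between groups of day 5). These values cannot tell whether libraries of the same number were prepared together, which the labels do not say. With the replicate number as a block, 769 genes were called against control, 764 of them among the 770.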

Other observations

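Several gene groups outside the comparisons above moved little with IWP2 and NaHCO3, by edgeR's quasi-likelihood test with Benjamini-Hochberg adjustment. Of 10 tested YAP/TEAD target genes, which respond to cell spreading and contact, 8 were lower at an adjusted p under 0.05 of any size and 1 higher, where 19.1% and 17.1% of all genes were, with a median log2 fold change of -0.40; with the spread estimated over all 24 libraries of days 3 and 5, 4 were lower and none higher. ANKRD1, a nuclear ankyrin protein of heart muscle and a YAP target, was the 1 call, at 4.05 and 3.8 FPKM with both agents, against 12.9 and 11.4 FPKM in control (log2 fold change -1.67). With the agents alone ANKRD1 was at 15 and 15.2 FPKM with IWP2 and 1.49 and 1.62 FPKM with NaHCO3. Of 12 tested NOTCH pathway genes 7 were lower and 2 higher at any size (median -0.48), or 5 and 1 with the spread over all 24 libraries; none was called, but 2 were called lower without IWP2 with NaHCO3 replicate 1.

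Of 17 tested cholesterol and fatty acid synthesis genes 9 were higher and 5 lower at any size, and of 13 heat shock and ER chaperone genes 7 were higher and 3 lower. With the spread over all 24 libraries, 5 were higher and 2 lower in the first list and 6 were higher and none lower in the second. None in either list was called by edgeR. Of 12 tested hypoxia response genes 7 were higher and 2 lower at any size, or 5 and 1 over all 24 libraries (median 0.33), with ADM, given above, as the 1 call. Nuclear genes of oxidative phosphorylation stayed near control, with 4 of 28 higher (1 over all 24 libraries), none lower and a median of 0.06.

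ATF3, a stress-responsive transcription factor, was at 8.02 and 8.74 FPKM with both agents, 1.85 and 1.99 FPKM with IWP2, 29 and 27.1 FPKM with NaHCO3 and 3.24 and 4.12 FPKM in control. Its log2 fold change over control with both agents was 1.16, and 0.995 without control replicate 1. It was the only call among 16 tested genes of the integrated stress response. ZEB1, a factor of the epithelial-mesenchymal transition, was higher at 2.06 and 2.08 FPKM, against 0.95 and 1.03 FPKM in control, with a log2 fold change of 1.04, and 0.98 without control replicate 1. GATM, the first enzyme of creatine synthesis, was lower (-1.04), and -0.98 without IWP2 with NaHCO3 replicate 1. GDF15, a p53 target and stress hormone, was called lower at 1.02 and 0.42 FPKM, against 1.57 and 1.34 FPKM in control, but not without IWP2 with NaHCO3 replicate 2 (adjusted p = 0.24), control replicate 1 (adjusted p = 0.215) or control replicate 2 (adjusted p = 0.0791).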
